A study of Mus musculus with 8 samples.

Results

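The genes described here are those whose signal in embryonic mouse lung differed with PTU in the same direction, by at least 1.5-fold, both in wild-type embryos and in embryos with the SMRTmRID mutation. Of 10298 genes tested, 31 met this rule, of which 25 were lower with PTU and 6 were higher. The signals were read on 8 Illumina bead arrays of lung RNA at E18.5 (E for embryonic day), with biotin-labelled cRNA and 25697 probes per array. The 4 groups were control chow and PTU, each in wild-type embryos (strain c57Bl6/J) and in SMRTmRID embryos of the same background. PTU was given to the mothers as 0.15% of the diet for 2 days from E16.5, so the embryos met it through the mother. Each group was 1 RNA sample read on 2 arrays that the labels call technical replicates, named A and B below. The number of embryos behind an RNA sample was not known here. P-values of the fit over 8 arrays therefore cover the error between arrays of the same RNA, and no p-value here covers variation between animals. The members were chosen by their PTU differences, so these differences are given as a description with no test.

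PTU (propylthiouracil) blocks the synthesis of thyroid hormone in the thyroid gland. Without hormone, the thyroid hormone receptor can sit on its target genes and hold them down through a corepressor, NCoR or SMRT, which brings in histone deacetylase activity. SMRT binds nuclear receptors through its receptor-interacting domains, and in SMRTmRID mice these domains are mutated, so the receptors can no longer recruit SMRT through them. Thyroid hormone and glucocorticoids are both known for promoting the late maturation of the fetal lung. In the heart, thyroid hormone is known to raise Myh6, the gene of the fast myosin heavy chain, and Atp2a2, the gene of the calcium pump of the sarcoplasmic reticulum. The title of the series ties the mutation to respiratory distress and to the repression exerted by the thyroid hormone receptor. The comparison asked which genes differed with the diet whether or not SMRT could be recruited in this way.

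Values below are normalized log2 signals of 1 probe per gene, and differences are log2 differences of PTU minus control unless stated otherwise, with the standard error (SE) of the array fit. Levels are not compared between genes, since each probe has its own response. The 31 genes were 0.301% of those tested, with 0.243% lower and 0.0583% higher. In wild type, 364 genes differed by at least 1.5-fold with PTU, 250 lower and 114 higher, and the 31 made up 8.52% of them. In SMRTmRID, 343 genes did so, 84 lower and 259 higher, and the 31 made up 9.04% of them. A further 26 genes, 0.252% of those tested, differed by at least 1.5-fold in both genotypes with opposite signs. Over all genes, 43.6% had the same sign in both genotypes. Of all genes, 22.3% were lower in both genotypes and 21.3% were higher in both. The median difference of all genes was 0.02 in wild type and -0.02 in SMRTmRID.

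**Figure D1:**
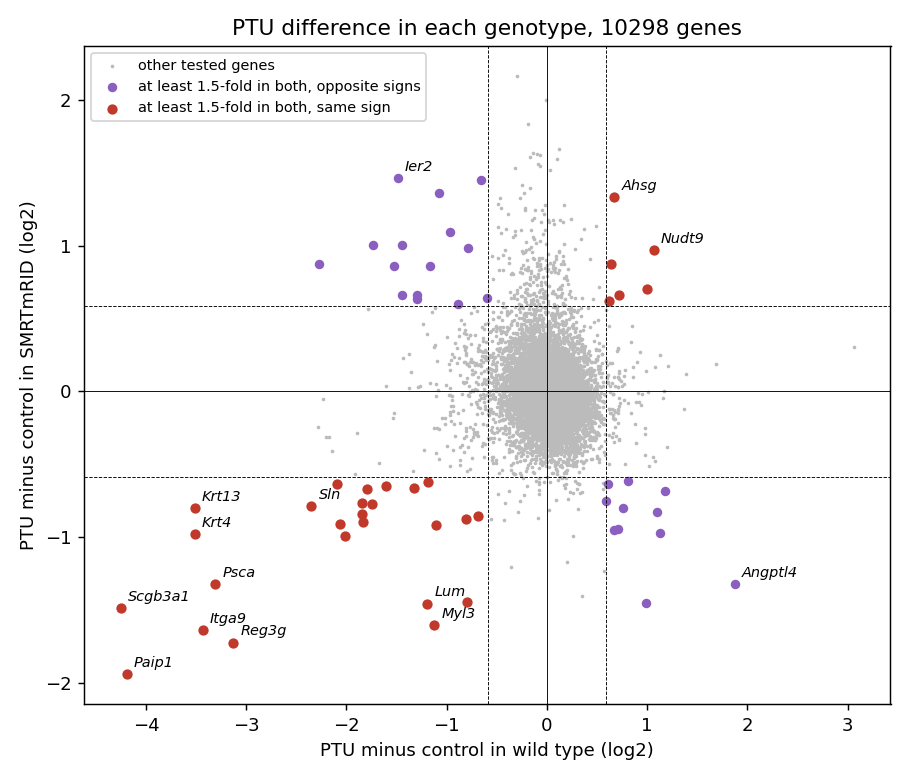
Each point is 1 of the 10298 genes tested, with the log2 PTU difference in wild type on the x axis and in SMRTmRID on the y axis. Red points are the 25 genes lower and the 6 genes higher by at least 1.5-fold (dashed lines) in both genotypes, purple points the 26 with opposite signs; 20 of the 25 lower genes have the larger difference in wild type.

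The 25 lower genes fell into a few kinds, sorted here after the members were known. Of these, 11 encode parts of striated muscle. A further 6 are known from airway or digestive epithelium. Lum and Chad encode matrix proteins, and the other 6 share no common role. The 6 higher genes include 3 that lie close together on chromosome 5. Genes just inside the rule by the smaller of their 2 differences were Kctd14 at 0.62, Fabp3 at -0.62, Ankrd1 at -0.63 and Chil3 at 0.64, against a limit of 0.58. Just outside were Myl4 at -0.57, Fpr2 at 0.56, Ephb1 at -0.56 and Aldh1b1 at -0.55.

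Promoters of 3 of the muscle genes are shown first because they share a motif. Promoter entries were matched for 22 of the 31 genes, 18 lower and 4 higher, with 24 promoters in all, and a gene was counted if any of its promoters held the motif. The CArG box, the site of serum response factor, a driver of muscle genes, was searched on both strands in 250 bases before and 50 after each start. It was found in 3 members, Actc1, Myl3 and Myl7, which is 13.6% of the 22 genes, against 1.66% of the 8333 tested genes with a promoter entry. The sequences are the 250 bases before the start site from RefSeq, build GRCm38.p6, read 5′ to 3′ along the gene, with the CArG box in capitals. The Actc1 promoter is at chr2:114052876-114053125 on the minus strand, that of Myl3 at chr9:110763428-110763677 on the plus strand and that of Myl7 at chr11:5898783-5899032 on the minus strand.
Actc1: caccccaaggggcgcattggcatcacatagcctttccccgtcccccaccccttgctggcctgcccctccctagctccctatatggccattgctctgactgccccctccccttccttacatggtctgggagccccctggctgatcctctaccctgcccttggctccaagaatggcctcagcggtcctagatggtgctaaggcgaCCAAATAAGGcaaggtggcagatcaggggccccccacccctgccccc
Myl3: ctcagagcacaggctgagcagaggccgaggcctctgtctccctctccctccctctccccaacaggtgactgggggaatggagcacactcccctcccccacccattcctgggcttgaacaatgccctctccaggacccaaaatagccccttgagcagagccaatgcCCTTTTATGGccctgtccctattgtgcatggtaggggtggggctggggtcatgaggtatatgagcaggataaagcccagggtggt
Myl7: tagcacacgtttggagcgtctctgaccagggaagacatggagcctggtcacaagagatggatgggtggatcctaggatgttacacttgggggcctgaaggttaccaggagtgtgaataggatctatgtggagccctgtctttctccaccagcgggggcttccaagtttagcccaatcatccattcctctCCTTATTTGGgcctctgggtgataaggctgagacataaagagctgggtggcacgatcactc
The box begins 47 bases before the start site in Actc1, 85 in Myl3 and 61 in Myl7. A match of letters is a description and not a sign that a factor binds there. The binding site of MEF2, another muscle factor, was found in 0 of the 22 genes, against 2.17% of tested genes. TATAAA, which can lie inside a MEF2 site, was found in 6 genes, or 27.3%, against 9.71% of tested genes.

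The half-site to which the thyroid hormone receptor binds, AGGTCA on either strand, was found in 3 of the 22 genes, Actn2, Chia1 and 1 of the 2 promoters of Krt13. This share of 13.6% was near that of the 8333 tested genes, 15.0%. The receptor's direct repeat, AGGTCA followed by AGGTCA after any 4 bases, which contains the half-site, was found in 0 of the 22 genes and in 0 of the 8333. The Chia1 promoter is shown because it holds the half-site once on each strand. It is at chr3:106113132-106113381 on the plus strand of GRCm38.p6, from RefSeq, with the half-sites in capitals.
Chia1: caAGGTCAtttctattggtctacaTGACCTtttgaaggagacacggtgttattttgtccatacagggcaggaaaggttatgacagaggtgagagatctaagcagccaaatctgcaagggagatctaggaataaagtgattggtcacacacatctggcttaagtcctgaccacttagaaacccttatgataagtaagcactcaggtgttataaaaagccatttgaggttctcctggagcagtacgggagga
The half-sites begin 248 and 226 bases before the start site, and the second is read on the opposite strand. Sites outside this window were not searched.

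The 11 striated muscle genes were lower with PTU by 2.18 to 5.09-fold in wild type and by 1.54 to 3.04-fold in SMRTmRID. Their median difference was -1.84 in wild type and -0.78 in SMRTmRID. Myl7 encodes the regulatory myosin light chain of the atria. Its signal was 8.86 and 8.67 on the wild-type control arrays, 7.91 and 8.02 on the SMRTmRID control arrays, 6.70 and 6.80 on the wild-type PTU arrays and 6.98 and 6.97 on the SMRTmRID PTU arrays. All 4 PTU arrays lay below all 4 control arrays, the wild-type control arrays were highest, and the PTU groups lay close together. The differences were -2.01 (SE 0.0949) in wild type and -0.99 in SMRTmRID, or 4.03 and 1.99-fold lower. Myl3 encodes a myosin light chain of ventricle and slow muscle. It read 6.57 and 6.60 in wild-type control, 6.27 and 6.49 in SMRTmRID control, 5.52 and 5.40 in wild-type PTU and 4.66 and 4.89 in SMRTmRID PTU. Here the SMRTmRID PTU arrays were lowest, and Myl3 was the only one of the 11 with the larger difference in SMRTmRID, -1.61 against -1.12 in wild type.

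The other 9 muscle genes had the same order of differences, larger in wild type. Sln, the gene of sarcolipin, an inhibitor of the sarcoplasmic calcium pump, had -2.35 and -0.78 in wild type and SMRTmRID. Ankrd1, an ankyrin repeat protein of heart muscle, had -2.10 and -0.63. Tnnc1, the calcium-binding troponin of heart and slow muscle, had -2.07 and -0.91. These 3 had the largest wild-type differences of the group. Of the sarcomere genes, Actc1, the cardiac actin, had -1.85 and -0.84. Mybphl, a protein related to myosin-binding protein H, had -1.84 and -0.90. Myh6 had -1.74 and -0.78. Actn2, the actin crosslinker of the Z disc, had -1.33 and -0.66. Cox6a2, the muscle form of a cytochrome oxidase subunit, had -1.61 and -0.65. Fabp3, which carries fatty acids in heart muscle, had -1.19 and -0.62. All 11 were lower in SMRTmRID than in wild type on control chow, and in 10 of them the PTU groups lay within 0.5 of each other. These counts are a description without the shares of all genes. The control and PTU levels also entered the rule, so nothing is read from the counts.

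**Figure D2:**
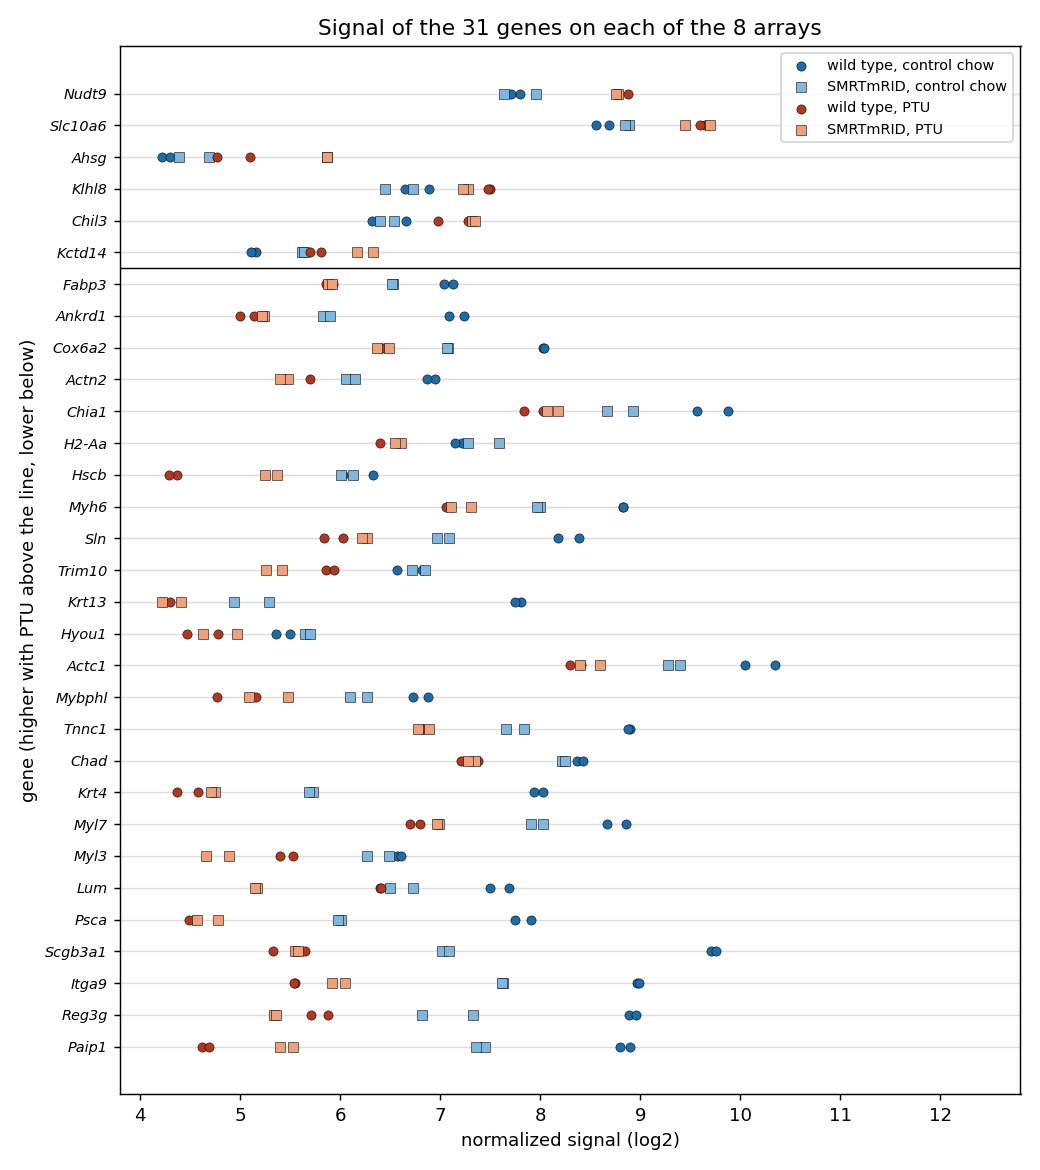
Normalized log2 signal (x axis) of the 31 genes (rows) on each of the 8 arrays, coloured by group. In the lower genes the wild-type control arrays mostly lie farthest right and the PTU arrays of both genotypes farthest left, while the 6 higher genes show PTU arrays right of control arrays.

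Of the kinds of lower genes, the 6 airway and digestive epithelial genes had the largest median difference in wild type, -3.41. Krt4, Krt13 and Psca among them were undetected on both wild-type PTU arrays, so this median is no exact size. They were lower with PTU by -4.25 to -1.79 in wild type and by -1.72 to -0.67 in SMRTmRID. Scgb3a1, a secretoglobin of airway secretory cells, read 9.71 and 9.76 in wild-type control, 7.02 and 7.08 in SMRTmRID control, 5.64 and 5.33 in wild-type PTU and 5.55 and 5.58 in SMRTmRID PTU. The PTU groups overlapped each other, while the control groups lay far apart, with wild type higher. The differences were -4.25 (SE 0.107) and -1.49, or 19.0 and 2.81-fold lower. A second Scgb3a1 probe gave -0.95 and -0.09, the same direction with much smaller sizes. Reg3g, an antibacterial lectin, read 8.89 and 8.96 in wild-type control, 6.82 and 7.33 in SMRTmRID control, 5.71 and 5.88 in wild-type PTU and 5.34 and 5.36 in SMRTmRID PTU. It was 8.73-fold lower with PTU in wild type and 3.30-fold lower in SMRTmRID, and the 4 groups did not overlap. Chia1, the acidic chitinase, had -1.79 (SE 0.128) and -0.67, and its second probe gave -1.83 and -0.68.

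The 3 genes of stratified epithelium among these 6 went undetected on some PTU arrays. Krt4, a keratin of the oesophagus and other moist stratified epithelia, read 7.94 and 8.03 in wild-type control, 5.72 and 5.69 in SMRTmRID control, 4.36 and 4.58 in wild-type PTU and 4.75 and 4.71 in SMRTmRID PTU. It was detected on 0 of 2 wild-type PTU arrays, so it was at least 10.2-fold lower there, and 1.97-fold lower in SMRTmRID. Psca, a membrane antigen of several epithelia, read 7.90 and 7.74 in wild-type control, 6.01 and 5.98 in SMRTmRID control, 4.55 and 4.48 in wild-type PTU and 4.56 and 4.78 in SMRTmRID PTU. It was detected on 0 of 2 wild-type PTU arrays and 1 of 2 SMRTmRID PTU arrays. It was at least 9.10-fold lower with PTU in wild type and 2.50-fold lower in SMRTmRID. Krt13, the keratin that pairs with Krt4, was undetected in both PTU groups, and was at least 8.81-fold lower in wild type and at least 1.45-fold lower in SMRTmRID. The bounds are set against the lowest detected signal of the same arrays. The SMRTmRID bound of Krt13 is smaller than the 1.5-fold of the rule, which its measured values of dim signal passed.

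Lum encodes lumican, a proteoglycan that binds collagen. It read 7.50 and 7.69 in wild-type control, 6.50 and 6.73 in SMRTmRID control, 6.39 and 6.40 in wild-type PTU and 5.17 and 5.14 in SMRTmRID PTU. SMRTmRID was below wild type on either diet, and PTU below control in either genotype, by -1.19 (SE 0.103) in wild type and -1.46 in SMRTmRID. Chad encodes chondroadherin, a cartilage matrix protein. It read 8.36 and 8.43 in wild-type control, 8.21 and 8.24 in SMRTmRID control, 7.21 and 7.38 in wild-type PTU and 7.35 and 7.28 in SMRTmRID PTU. Its differences of -1.10 (SE 0.0900) and -0.91 were among the closest of the lower genes, and its groups on the same diet lay near each other.

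Of the other lower genes, Paip1, which binds the poly(A)-binding protein in translation, had the largest smaller difference of all members. It read 8.89 and 8.80 in wild-type control, 7.45 and 7.36 in SMRTmRID control, 4.61 and 4.69 in wild-type PTU and 5.40 and 5.53 in SMRTmRID PTU. It was 18.3-fold lower with PTU in wild type and 3.84-fold lower in SMRTmRID, and 1 of 2 wild-type PTU arrays detected it. Itga9, an integrin chain, read 8.97 and 8.99 in wild-type control, 7.62 and 7.61 in SMRTmRID control, 5.55 and 5.54 in wild-type PTU and 6.04 and 5.92 in SMRTmRID PTU. It was 10.8 and 3.11-fold lower. In both genes the order of groups was wild-type control, SMRTmRID control, SMRTmRID PTU and wild-type PTU, from high to low, with no overlap.

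The remaining lower genes had smaller differences. Trim10, known from red cell development, had -0.79 in wild type and -1.44 in SMRTmRID. H2-Aa, a chain of the class II histocompatibility molecule, had -0.69 and -0.86. Hyou1, a chaperone of the endoplasmic reticulum, had -0.81 and -0.87, and 1 of 2 wild-type PTU arrays detected it. These 3 were the lower genes in this group with the larger value in SMRTmRID. Hscb, a chaperone of iron-sulfur cluster assembly, had -1.85 and -0.76 and was undetected on both wild-type PTU arrays, where it was at least 2.91-fold lower. A second Hscb probe gave 0.22 and -0.18, so the 2 probes of this gene disagree.

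Among the 6 higher genes, Nudt9, which splits ADP-ribose, read 7.80 and 7.71 in wild-type control, 7.96 and 7.64 in SMRTmRID control, 8.88 and 8.76 in wild-type PTU and 8.77 and 8.76 in SMRTmRID PTU. All PTU arrays were above all control arrays and the genotypes overlapped, with differences of 1.07 (SE 0.110) and 0.97. Slc10a6, a transporter of sulphated steroids, read 8.69 and 8.56 in wild-type control, 8.89 and 8.85 in SMRTmRID control, 9.64 and 9.60 in wild-type PTU and 9.45 and 9.70 in SMRTmRID PTU. It was 2.00 and 1.63-fold higher with PTU. Klhl8, of the kelch family, read 6.89 and 6.64 in wild-type control, 6.73 and 6.45 in SMRTmRID control, 7.50 and 7.48 in wild-type PTU and 7.28 and 7.23 in SMRTmRID PTU. Its differences were 0.72 and 0.66, with the control groups overlapping and the PTU groups near each other.

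Ahsg encodes fetuin-A, a plasma protein made in the liver. It read 4.22 and 4.30 in wild-type control, 4.39 and 4.69 in SMRTmRID control, 4.77 and 5.10 in wild-type PTU and 5.86 and 5.87 in SMRTmRID PTU. It was undetected on both wild-type control arrays and detected on 1 of 2 SMRTmRID control arrays, so it was at least 1.30-fold higher with PTU in wild type and 2.52-fold higher in SMRTmRID. The bound in wild type lies under 1.5-fold. Chil3, a chitinase-like protein of macrophages, read 6.32 and 6.66 in wild-type control, 6.40 and 6.53 in SMRTmRID control, 6.97 and 7.28 in wild-type PTU and 7.32 and 7.35 in SMRTmRID PTU. It was 1.56 and 1.83-fold higher. Chil3 lies next to Chia1 among the tested genes of chromosome 3, and the neighbours differed in opposite directions. Kctd14 read 5.16 and 5.11 in wild-type control, 5.62 and 5.64 in SMRTmRID control, 5.81 and 5.70 in wild-type PTU and 6.33 and 6.17 in SMRTmRID PTU. Its differences of 0.62 and 0.62 were the most alike between the genotypes, on top of a higher level in SMRTmRID on either diet.

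The 3 higher genes of chromosome 5 lay within a run of 5 neighbouring tested genes, in the order Slc10a6, Aff1, Klhl8, Hsd17b11 and Nudt9, which was picked after the values were seen. All 5 were higher with PTU in both genotypes. Aff1, a scaffold of transcription elongation complexes, had 0.38 and 0.45, and Hsd17b11, a steroid and lipid dehydrogenase, had 0.85 and 0.45. The tested genes on either side, Arhgap24 at -0.01 and 0.10 and Sparcl1 at 0.01 and 0.17, had smaller values. Of 10212 runs of 5 neighbouring tested genes in the genome, 22 had 1 sign in both genotypes for all 5 genes. This run alone had all 5 genes different by at least as much as its own smallest value, a limit set by the run itself. The run holds 3 members chosen by these same differences, so these counts are a description with no test.

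**Figure D3:**
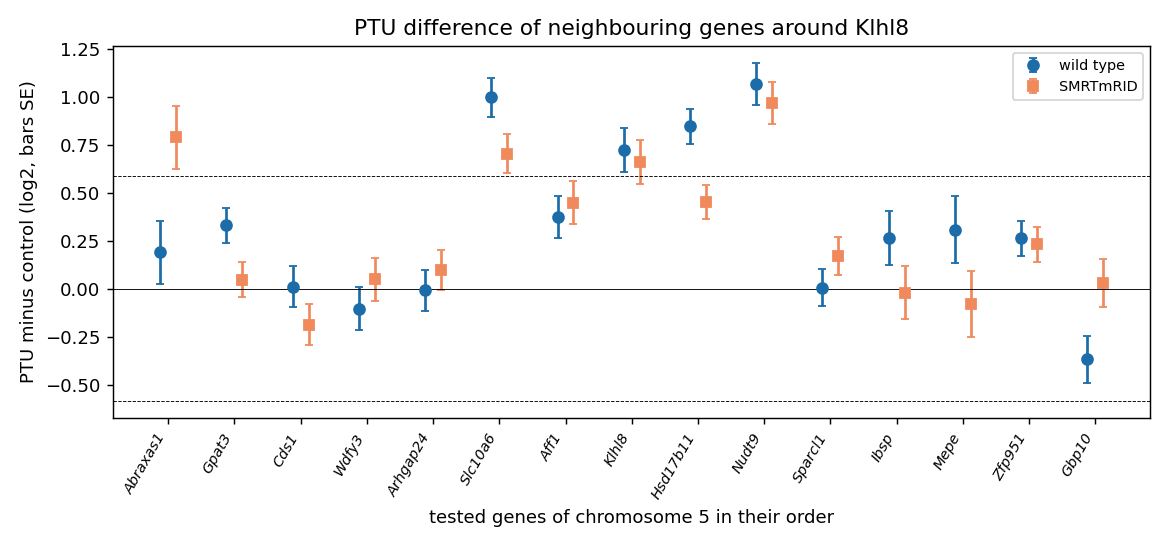
Log2 PTU difference (y axis) in wild type and in SMRTmRID for tested genes of chromosome 5 in their order along the chromosome (x axis, not to scale), with bars of 1 SE and dashed lines at 1.5-fold. The 5 genes from Slc10a6 to Nudt9 lie above 0 in both genotypes, and Arhgap24 and Sparcl1 on either side lie at 0.17 or below.

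Apart from the probe that chose it, a gene could be read on its other detected probes. There were 12 such probes for 11 of the 31 genes, on the same arrays and RNA. Of these, 11 had the same direction as the chosen probe in both genotypes, the exception being Hscb, and 2 met the rule by themselves. The latter were the second probes of Actc1, at -1.61 and -0.66, and of Chia1. Myh6 read -1.52 and -0.44 on its second probe, Ankrd1 -1.76 and -0.23, and Trim10 -0.69 and -0.53. For the higher genes, Slc10a6 read 1.05 and 0.42, Klhl8 0.85 and 0.21 and Chil3 0.41 and 0.46. Both further probes of Kctd14 were positive, at 0.42 and 0.37 and at 0.39 and 0.23. In all of these but Chia1 the further probes had a smaller difference in SMRTmRID than the chosen one. A second Paip1 probe was too dim to be kept.

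The differences were larger in wild type for 20 of the 25 lower genes. The genotype by diet term, the PTU difference in SMRTmRID minus that in wild type, passed the test (limma, Benjamini-Hochberg adjusted p under 0.05 and at least 1.5-fold) in 972 genes, 9.44% of those tested, with 6.18% positive and 3.26% negative. It passed in 20 of the 31, positive in 18 lower genes, negative in Trim10 and positive in Ahsg. These counts use the contrasts that chose the members, so nothing is read from them. The term was 2.76 in Scgb3a1, 2.72 in Krt13, 2.54 in Krt4 and 2.25 in Paip1. Krt13 and Krt4 were undetected on both wild-type PTU arrays, so their terms are no exact sizes. The group levels are given as a description without the shares of all genes, so nothing is read from their counts. SMRTmRID control lay below wild-type control in 22 of the 25 lower genes, with a median gap of -0.93. Between the PTU groups the median gap was 0.12, with SMRTmRID higher. The largest gap in size was 1.24, in Lum, with SMRTmRID lower. The wild-type control group was highest in 22 of the 25, and the wild-type PTU group lowest in 20. Apart from the gap between the PTU groups, these comparisons share the wild-type control RNA sample.

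The genotype difference averaged over both diets (SMRTmRID minus wild type) was not used by the rule, and was tested on all genes over the 8 arrays. It passed in 100 genes, 0.971% of those tested, with 0.155% lower and 0.816% higher in SMRTmRID. Among the members, 6 lower genes passed with less signal in SMRTmRID: Krt13 at -1.31 (SE 0.0848, adjusted p = 2.93e-05, limma with Benjamini-Hochberg adjustment), Scgb3a1 at -1.30, Reg3g at -1.15, Lum at -1.11, Krt4 at -1.01 and Psca at -0.84. Of these 6, only Lum and Reg3g were lower in SMRTmRID on both diets. In the others the gap lay on control chow. With PTU, the wild-type and SMRTmRID means were 4.26 and 4.31 in Krt13 and 5.48 and 5.56 in Scgb3a1. They were 4.47 and 4.73 in Krt4 and 4.52 and 4.67 in Psca. Ahsg passed with more signal in SMRTmRID, at 0.60 (SE 0.0890, limma adjusted p = 0.00248). Krt13, Krt4, Psca and Ahsg were undetected in at least 1 group, so their values are no exact sizes. None of the 11 muscle genes passed. Their differences ran from -0.57 to -0.15, all under 1.5-fold in size. The median was -0.45 in the 25 lower genes, 0.10 in the 6 higher ones and -0.01 in all genes. Genotype and diet differences are computed from the same 4 RNA samples, so a gene out of line in the wild-type control RNA enters both, and their overlap is not given as a result. With the RNA sample as a random block, 6 genes in all passed for genotype and 39 for diet.

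For the diet difference averaged over the genotypes, 119 genes (1.16%) passed over the 8 arrays, 70 lower (0.68%) and 49 higher (0.476%). All 31 members were among them, which the rule makes likely by itself. In the fit over the 4 RNA samples, with genotype as a covariate, 0 genes passed (0%) by limma, the smallest adjusted p was 0.112, and 334 genes (3.24%) had an unadjusted p under 0.05. This fit has 1 residual degree of freedom, and its error is the disagreement between the genotypes.

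Lists of genes for the thyroid hormone pathway and for the cell types of the lung and its neighbours were read in the same fit, with counts of genes that passed for the diet difference averaged over genotypes. Members in a list were chosen by these differences, so counts and medians that include them are a description. Opposite differences in the genotypes cancel in this average, so a gene that did not pass may still differ within a genotype. Of 12 tested genes known to respond to thyroid hormone, 0 passed, 5 were lower and 1 was higher in both genotypes. The medians were -0.08 in wild type and -0.17 in SMRTmRID. The list was not split into genes that the hormone raises and genes that it lowers, so these values give no direction of the response. Klf9, a transcription factor raised by the hormone in many tissues, had -0.44 and 0.61. Hr, a corepressor raised by it in brain, had 0.33 and -0.39. Neither had 1 direction in both genotypes. Atp2a2 had -0.48 and -0.33 (limma adjusted p = 0.0025, below 1.5-fold). Stard4 had -0.04 in wild type and 0.67 in SMRTmRID, so it was higher with PTU in SMRTmRID alone. Tshb had -0.31 and -0.18, and Rcan2, a calcineurin inhibitor, had -0.20 and -0.26. Nrgn, a calmodulin-binding protein of neurons, was dim and undetected in both PTU groups, where it was at least 1.03 and 1.09-fold lower; it counts among the 5. Of 13 genes for hormone transport, receptors and corepressors, 0 passed. Thra, the main receptor gene in many tissues, had -0.18 and 0.41 and was not detected on every array. Thrb, Dio1 and Dio2 were detected on 0 arrays and Dio3 on 1, so they were not tested.

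Of 9 tested heart muscle genes, 7 passed lower and 0 higher, 8 were lower in both genotypes, and 4 were members. The median was -1.24 over both genotypes, against -0.000987 for all genes. The 4 members in it were chosen by these differences, so the median and the count of genes passing are a description. Beside the members, Myl4, the atrial light chain, had -1.92 and -0.57, Ttn, the giant spring of the sarcomere, -1.68 and -0.49, while Myl2, the ventricular light chain, was undetected in both PTU groups, at least 1.07-fold lower in wild type and at least 1.30-fold lower in SMRTmRID. Myh7 had -0.34 and -0.18 and Tnni3 -0.57 and 0.23, which did not pass. The summed linear signal of the 9 genes was 4367 to 4575 on the wild-type control arrays, 2390.0 to 2396 in SMRTmRID control, 1257 to 1318 in wild-type PTU and 1444 to 1497 in SMRTmRID PTU. Between 7 and 9 of the 9 were detected on every array. In mice, heart muscle extends along the pulmonary veins into the lung. In RNA of whole tissue, fewer cells of a type and less RNA per cell cannot be told apart. The part of heart muscle in the result for the muscle genes was not tested. Of 8 skeletal muscle genes, Ckm, detected on 1 of 2 wild-type PTU arrays, at -1.13 and -0.25 and Tnnt1 at -0.997 and -0.37 passed lower, while Acta1, the skeletal actin, at -0.10 and 1.63, passed higher.

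**Figure D4:**
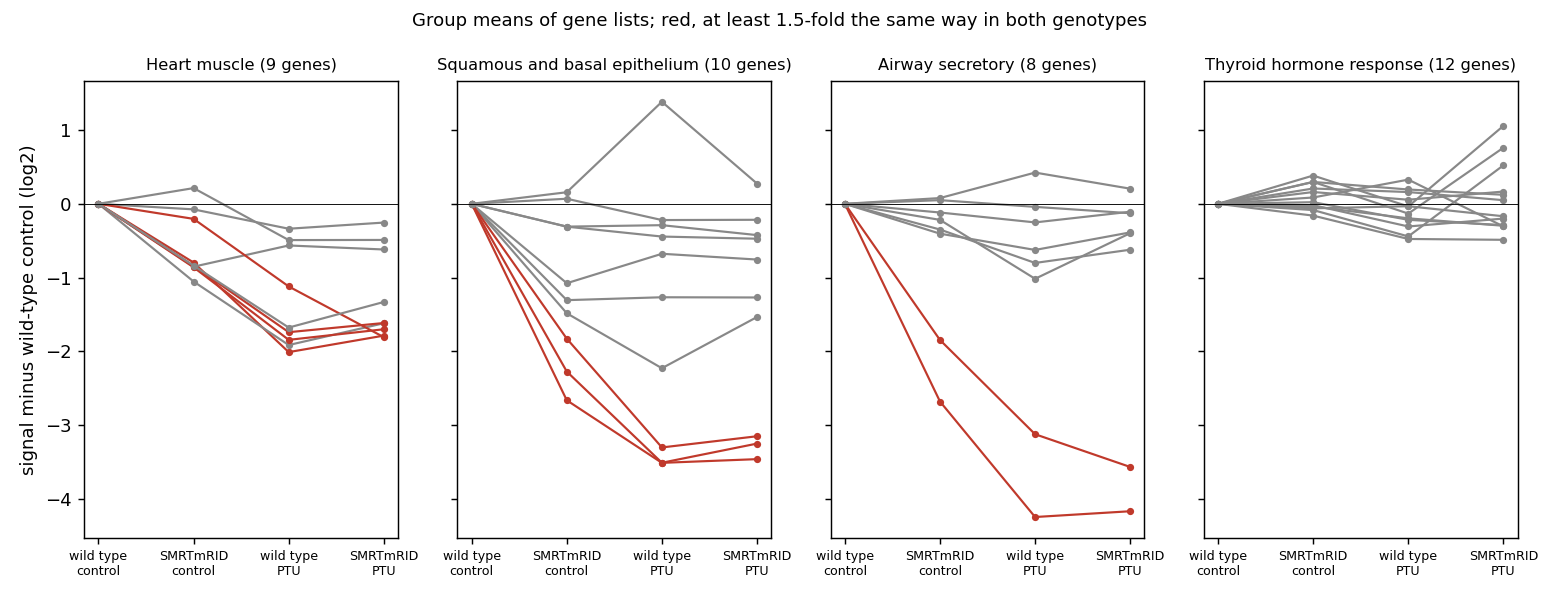
Group mean log2 signal minus that of wild-type control (y axis) for each tested gene of 4 lists in the 4 groups (x axis); each line is 1 gene, red for members. The red lines of the heart muscle, squamous and airway lists lie below 0 in the other groups and lowest with PTU, while the 12 thyroid hormone response genes scatter around 0.

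Of 10 squamous and basal epithelial genes, 5 passed lower and 1 higher, with a median of -0.97 in wild type and -0.14 in SMRTmRID. The lower ones were the members Krt4, Krt13 and Psca, and also Krt14, a basal keratin, and Trp63, the master factor of basal cells. Krt14 was undetected on both wild-type PTU arrays, so it was at least 4.03-fold lower with PTU in wild type, and it had -0.05 in SMRTmRID. Trp63 was detected in wild-type control alone, so it was at least 2.15-fold lower with PTU in wild type, and SMRTmRID gave no difference that could be read. Lor, of the cornified envelope, passed higher at 1.38 and 0.12. The summed signal of the list was 1363 to 1470 in wild-type control, with all 10 detected, 586 to 603 in SMRTmRID control, with 7 detected, 731 to 745 in wild-type PTU, with 2 to 3 detected, and 542 to 574 in SMRTmRID PTU, with 4 to 6 detected. The sum in wild-type PTU came mostly from Lor and Krt15, at 8.44 and 7.75 in log2. It therefore does not follow the genes that passed lower. The part of squamous and basal epithelium in the result for the epithelial members was not tested. Of 8 airway secretory genes, 3 passed lower, the members Scgb3a1 and Reg3g and also Scgb1a1, the club cell secretoglobin, at -1.02 and -0.18. Of 10 ciliated cell genes, 0 passed.

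The tissue read as lung in all groups: Nkx2-1, Sftpc, Sftpb, Ager and Scgb1a1 were detected in each. Of 19 tested type II pneumocyte and surfactant genes, 1 passed, Chil1 at 0.84 and 0.34, and 0 of 13 type I pneumocyte genes did. Only 1 of these 13 had the same sign in both genotypes. Sec14l3 had -0.46 and 1.08, and Col4a3 -0.93 and 0.24. Sftpc had 0.10 and -0.09, Nkx2-1 0.17 and 0.15, and Ager, of type I cells, -0.36 and 0.21. Of 16 fibroblast and matrix genes, Lum and Dcn, another collagen-binding proteoglycan, passed lower, the latter at -0.86 and -0.50, and 1 passed higher. In the endothelial (15), smooth muscle (8), mesothelial (8), macrophage (11) and lymphocyte (3) lists, 0 passed. Of 11 erythroid genes, Trim10 and Slc4a1, the anion exchanger of red cells, at -0.36 and -1.20, passed lower. Of 5 liver genes, 4 were higher and 1 was lower in both genotypes, and Ahsg and Ttr, the thyroid hormone carrier transthyretin, passed higher. Ttr was undetected in both control groups, so it was at least 1.09-fold higher with PTU in wild type and at least 1.96-fold higher in SMRTmRID. Trf, the gene of transferrin and the only one of the 5 detected on every array, had -0.25 and -0.41. The summed signal of the list was 3714 to 4183 in wild-type control, with 1 of the 5 detected, and 3329.6 to 3361.5 in wild-type PTU, with 2 to 4 detected. It was 3935 to 4390 in SMRTmRID control, with 1 to 2 detected, and 2981 to 3482 in SMRTmRID PTU, with 5 detected. The sum was lower with PTU in both genotypes, so it does not follow the 4 genes that were higher. The part of red cells in the result for Trim10 and of liver in that for Ahsg was not tested.

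Of the lists on the state of the tissue, 0 genes passed among 14 immediate early and heat shock, 13 proliferation, 14 hypoxia, 7 lipid and 12 sterol genes. Single genotypes did differ behind these counts. Fos had -1.74 in wild type and 1.00 in SMRTmRID, Egln3 1.16 and -0.05, and Plk1 0.91 and -0.01. Only 1 of the 13 proliferation genes had the same sign in both genotypes. Of 9 interferon genes, Rsad2 at -2.20 and -0.31 and Ifit3 at -2.28 and 0.87 passed lower. Of 10 neutrophil genes, Saa3, an acute phase protein, passed higher at 1.68 and 0.19. Of 15 glucocorticoid genes, Crh passed higher at 3.06 and 0.30, and of 13 insulin genes, Irs2 at -0.0041 and 2.00 and Eif4ebp2 at -0.32 and 1.53. In each of these 6 genes that passed, 1 genotype had much the larger difference. Sex-linked genes differed between the wild-type samples: Xist had 0.99 and 0.14, Kdm5d -0.72 and 0.02, and Eif2s3y -0.63 and -0.02, and 0 of 4 passed. The part of the sex of the embryos in the wild-type differences was not tested.

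The genes with opposite signs show the contrast. Angptl4, a lipase inhibitor, had 1.88 in wild type and -1.32 in SMRTmRID. Ier2, an immediate early gene, had -1.49 and 1.46, Myl1, a skeletal myosin light chain, -1.07 and 1.36, and Pcolce2, which enhances procollagen processing, -1.45 and 1.00.

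How many of the 31 were found depended on how dim signal was handled. Without background correction, in the authors' processed table and with a larger offset, 15 of them met the rule. The 16 others included Krt4, Krt13, Sln, Ankrd1 and, of the higher genes, Ahsg, Klhl8, Chil3 and Kctd14. Of the 31, 11 met the rule in each of the 15 settings tried, Actc1 among them.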

How the data were processed

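Per the file headers, the deposited table used here gives each probe's average signal on each array, a linear intensity not normalized between arrays, and its detection p-value. Per the submitters' processing notes the software was GenomeStudio. A second deposited table holds intensity values processed by the authors, with column medians of 52.3 to 52.4; they are linear and not centred, and how they were normalized is not stated. It served as an alternative. Array columns carry letters A and B and titles carry replicate numbers, so arrays are named by letter. Replicate numbers did not pair samples: deviations from group means correlated at -0.0747 to 0.122 between groups.

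With limma 3.58.1 in R 4.3.3, signals were background-corrected (normal-exponential model, noise inferred from the detection p-values), raised by an offset of 16, logged (log2) and quantile normalized, as neqc does. An offset makes differences of dim genes smaller. Probes with a detection p under 0.05 on both arrays of any group were kept, 14965 of 25697. Of all probes, 23978 had 1 gene symbol, 0 several and 1719 none, and 23962 were found by identifier in RefSeq, assembly GRCm38.p6, with 0 symbols changed. The brightest kept probe stood for a gene; 899 kept probes had no name, of which 4 lower and 1 higher met the same rule. Mean signals were 294 to 376, 54.7% to 58.8% of probes were detected, arrays of a group correlated at 0.997 and arrays of different groups at 0.989 to 0.994, and the median SD within a group was 0.0712. The number of arrays limits the precision.

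A fit of group means over 8 arrays (lmFit and eBayes, 4 residual degrees of freedom, prior 6.44) gave the tests, at a Benjamini-Hochberg adjusted p under 0.05 and 1.5-fold. A second fit of genotype and diet used the 4 RNA samples. The code was tested on simulated data. Members and lists were chosen with earlier results of these data known. Values per array are given for up to 10 members in each direction with the largest smaller difference, and lists are represented by their members and up to 5 genes with the largest mean difference. Alternatives were median scaling, no background correction, the processed table, other probe filters, an offset of 50, the mean over probes, 2-fold, a random block for the RNA sample, and leaving out each array.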

Additional observations from a re-analysis of the deposited data

Results flagged for a closer look

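For 24 of the genes above, 20 members and 4 genes with opposite signs, the genotype by diet term (the PTU difference in SMRTmRID minus that in wild type) was at least 1.5-fold. These genes were chosen by the same 2 differences, so the terms are a description with no test. A lower gene has a positive term where its difference was larger in wild type. In the muscle genes it was 1.56 in Sln, 1.46 in Ankrd1, 1.16 in Tnnc1, 1.02 in Myl7, 1.01 in Actc1, 0.97 in Myh6, 0.96 in Cox6a2, 0.94 in Mybphl and 0.67 in Actn2. In the epithelial genes it was 2.76 in Scgb3a1, 2.72 in Krt13, 2.54 in Krt4, 1.98 in Psca, 1.40 in Reg3g and 1.12 in Chia1. It was 2.25 in Paip1, 1.80 in Itga9, 1.08 in Hscb, -0.65 in Trim10 and 0.66 in Ahsg. With opposite signs, it was 2.95 in Ier2, 2.45 in Pcolce2, 2.43 in Myl1 and -3.20 in Angptl4. Krt13, Krt4, Psca, Hscb and Ahsg were undetected in at least 1 of the groups compared, so their terms are no exact sizes.

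Of 67 named genes of the lists that are no members, 41 passed for the term (limma over 8 arrays, Benjamini-Hochberg adjusted p under 0.05 and at least 1.5-fold), against 9.44% of all genes; the 67 were named for large differences or by choice, so the share is no result about the lists. The test covers array error alone. The term was 3.15 in Ifit3 and 1.89 in Rsad2, of the interferon list. It was 2.74 in Fos, 0.83 in Hspb1, 2.00 in Irs2 and 1.86 in Eif4ebp2. In muscle genes it was 1.72 in Acta1, 1.35 in Myl4, 1.19 in Ttn, 0.88 in Ckm, 0.62 in Tnnt1 and 0.95 in Actg2. In epithelial and mesothelial genes it was 2.18 in Krt14, 1.55 in Sec14l3, 1.34 in Upk3b, 0.84 in Scgb1a1, 0.64 in Cyp2f2 and -1.27 in Lor. It was 1.68 in Car4, 1.17 in Klf2, 1.16 in Col4a3, 0.71 in Thy1 and -0.69 in Wnt2. Of the hormone lists, it was 1.05 in Klf9, -0.72 in Hr, 0.74 in Ncoa2, 0.64 in Sgk1 and -2.76 in Crh. In blood and acute phase genes it was 0.90 in Ltf, -1.50 in Saa3, -0.85 in Slc4a1, -1.75 in Kel and -1.86 in Hbb-y. It was 0.74 in Ttr, 0.71 in Stard4, -0.92 in Plk1, -1.02 in Mcm6 and -1.20 in Egln3. Of the sex-linked genes, it was 0.74 in Kdm5d, 0.61 in Eif2s3y and -0.85 in Xist. Krt14, Ncoa2 and Ttr were undetected in at least 1 of the groups compared, so their terms are no exact sizes.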

How the results depend on the processing

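The counts of genes were 31 for the rule, 0 and 119 for diet over 4 RNA samples and 8 arrays, 100 for genotype and 972 for the genotype by diet term. Median scaling gave 46 for diet over RNA samples (10 higher, 36 lower) and 1484 for the term (556 positive, 928 negative). No background correction gave 15, 50 for diet over 8 arrays, 44 and 553. The authors' processed table gave 15, 50, 43 and 559, and the same 50, 43 and 559 with the replicate block. An offset of 50 gave 15, 50, 45 and 573. Probes detected in every group gave 3 for diet over RNA samples. A 2-fold limit left 7 members and 232 genes for the term. The RNA sample as a random block gave 39 for diet and 6 for genotype (consensus correlation 0.345). Leaving out 1 array gave 30 to 34, 0, 112 to 123, 98 to 113 and 916 to 1027. The causes were not tested.

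Of the 31 genes, 31 remained under median scaling and no probe filter, 24 of 25 measured with probes detected in every group, 25 with the mean over probes and 29 to 31 without 1 array. Hscb turned to 0.0226 where probes had to be detected in every group, since another of its probes then stood for it. The liver list's median became -0.33 and the squamous list's 0.29 there. For the members' mean difference over both genotypes, 17 values missed the threshold, in Ahsg, Klhl8, Chil3, Kctd14 and Hyou1, and 441 passed it; the rule, which needs 1.5-fold in each genotype, was lost by more genes, as above. Of the list genes, Scgb1a1 missed 1.5-fold without wild-type PTU array A, and Acta1, Chil1, Ckm, Eif4ebp2, Ifit3, Myl2, Tnnt1 and Ttr missed the threshold in at least 1 setting.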
